A study of Mus musculus with 16 samples.

Results

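Skeletal muscle of mice lacking the cannabinoid 1 receptor in muscle fibres (CB1KO) was compared with muscle of wild-type littermates (WT), all kept on a standard diet (SD). The comparison uses 8 of the 16 arrays of the series: 4 CB1KO_SD and 4 WT_SD arrays, chosen by their sample titles and each described as a biological replicate. The mice were males of 21 to 23 weeks that ate this diet (16.7% of kJ as fat, 12.4% as sugar) for 15 weeks. The remaining 8 arrays hold the same genotypes on a diet high in fat and sugar (HFHS, 49.2% of kJ as fat and 32.2% as sugar) and serve here only to set the standard-diet values against. The knockout joins a floxed CNR1 gene with Cre driven by the ACTA1 promoter, which is active in muscle fibres and not in the other cells of the tissue. The growth protocol writes both genotypes as Cre-positive, so whether the WT littermates carried Cre or the floxed gene is not settled by the labels. The diet tag of the CB1KO_SD arrays names the other diet, and the titles were followed. The treatment protocol also mentions assignment to vehicle or S961, an insulin receptor antagonist, without saying which these mice received, nor is the muscle that was dissected named.

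The cannabinoid 1 receptor, encoded by Cnr1, is a receptor coupled to inhibitory G proteins. It is activated by endocannabinoids, lipids that cells make on demand from membrane phospholipids. The title of the study names interleukin 6 and myostatin, a cytokine released by working muscle and a muscle-made inhibitor of muscle growth, as the genes of interest. Other genes are described below by role: heat shock and immediate early genes, fibre-type genes, cytokines and their targets, and metabolism.

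Levels are log2 intensities relative to the 75th percentile of each array, so a level of 0 is that percentile. A difference is the CB1KO mean minus the WT mean on this scale, with 4 arrays per group. It is given ± its standard error, which comes from a fit of all 16 arrays. That error uses the spread within all groups, HFHS included, and draws on the spread of other genes. It can therefore differ from the error of the 8 listed values alone. Array values are listed in the order of replicates 1 to 4. Levels are compared within a gene only, since probes differ in brightness. Of 59305 spots that are not controls, between 56.7% and 66.6% stood well above background on the 8 arrays (60.6% to 66.6% in WT and 56.7% to 63.3% in CB1KO), and none was saturated. CB1KO replicate 2 stood apart: its log2 signal had an SD of 2.89, while the remaining 7 arrays had 3.14 to 3.69. All 8 arrays lay on 1 slide, WT in its first row and CB1KO in its second, so genotype and slide row cannot be told apart. Markers of skeletal muscle fibres, the labelled tissue, had mean levels of 8.19 to 8.81 in WT and 8.48 to 8.91 in CB1KO, with none of 12 differing at an unadjusted p under 0.05 (5 were lower without CB1KO replicate 2).

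A single gene passed the test. Hspa1a, the gene of the stress-inducible Hsp70 chaperone, rose. Its level was -1.16, -1.05, -1.20 and -1.33 in the WT arrays and 1.47, 2.50, 2.09 and 2.79 in the CB1KO arrays. Every CB1KO array lay above every WT array, and the WT arrays were nearly alike. The log2 difference was 3.40 ± 0.39, or 10.5-fold (adjusted p = 0.0155, limma with Benjamini-Hochberg adjustment over 29011 genes). Hspa1b, a near-identical neighbour of Hspa1a, is not listed under its own symbol, so RNA of either copy may bind this probe and the value is uncertain between them. The adjusted p was 0.0928 without WT replicate 1, 0.0984 without WT replicate 3, 0.0983 without CB1KO replicate 4, and 0.0689 when only the 8 SD arrays were fitted. Its difference stayed between 3.20 and 3.64 whichever array was left out.

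Over all genes, 1 was higher (0.00345% of those tested) and 0 were lower (0%) at an adjusted p under 0.05. At an unadjusted p under 0.05, 633 genes were higher (2.18%) and 1983 were lower (6.84%). Without CB1KO replicate 2 these counts were 1026 and 3767, and without WT replicate 1 they were 482 and 1247. The 4 CB1KO values lay entirely above the 4 WT values for 297 genes (1.02%) and entirely below them for 917 (3.16%). The median difference of all genes was -0.12, and quantile normalization moved it to -0.05. Scaling also moved the split: 24.2% of the genes at an unadjusted p under 0.05 were higher here, against 37.4% after quantile normalization, 40.6% with the deposited scores and 39.2% when arrays were centred on the median. All unadjusted counts given for gene lists below are to be read against these shares, and none of their members other than Hspa1a passed the adjusted threshold. These counts move with single arrays: of the 34 that stood at 1 to 3, 27 moved by over 1.5 times when some array was left out, as did 8 of the 12 that stood at 4 or more. Sums over the 41 lists count a gene once for each list it is on (901 entries, 846 distinct genes). They were 105 higher and 45 lower, against 132 and 31 after quantile normalization and 137 and 42 with normexp added. With the deposited scores they were 114 and 21, and with arrays centred on the median 85 and 6.

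**Figure D1:**
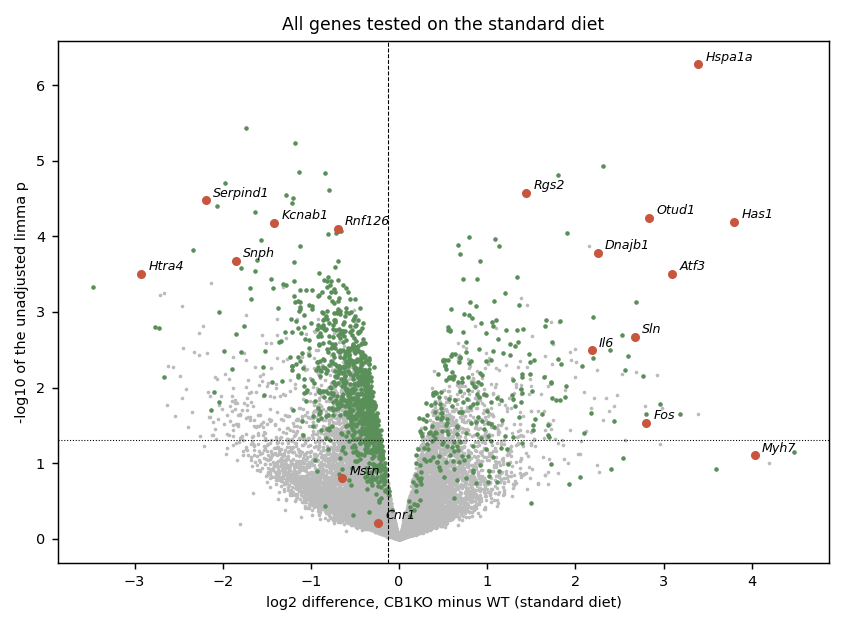
Each point is 1 of the 29011 genes tested on the standard diet. The horizontal axis is the log2 difference, CB1KO minus WT, and the vertical axis is -log10 of the unadjusted limma p. Green points are genes whose 4 CB1KO and 4 WT values do not overlap, orange points are named genes, the dotted line is the unadjusted threshold and the dashed line is the median difference of all genes, -0.12. Hspa1a stands highest, and more points lie past the dotted line on the left (1983) than on the right (633).

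Among the 15 genes of smallest p with a symbol and with all CB1KO values above all WT values, several encode chaperones, stress regulators and enzymes of the matrix. Dnajb1, an Hsp40 co-chaperone that works with Hsp70, had levels of 2.45, 2.84, 1.99 and 1.56 in WT and 3.0, 4.17, 5.06 and 5.62 in CB1KO. CB1KO replicate 1 was only just above the highest WT array, and the difference was 2.25 ± 0.44 (adjusted p = 0.145). Otud1, a deubiquitinating enzyme, read -0.99, -0.32, -0.78 and -1.90 in WT and 1.22, 1.66, 2.09 and 2.36 in CB1KO, with a wide gap between the groups. Its difference was 2.83 ± 0.50 (adjusted p = 0.0974). For the stress-induced factor Atf3, the arrays read -0.01, 1.59, 0.10 and -0.40 in WT and 2.12, 3.51, 3.99 and 4.05 in CB1KO. WT replicate 2 was the highest of its group, and the difference was 3.10 ± 0.65 (adjusted p = 0.203).

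Has1, which makes the matrix polysaccharide hyaluronan, had the greatest difference of these 15 genes. Its levels were -3.69, -2.01, -3.92 and -4.75 in WT and -0.54, -0.18, -0.16 and 1.71 in CB1KO, where replicate 4 was far above the other three. The difference was 3.80 ± 0.67 (adjusted p = 0.101), and 1 of the 4 WT arrays was not well above background. Rgs2, which shortens signalling by G protein-coupled receptors, read 1.87, 1.89, 1.18 and 2.07 in WT and 3.35, 3.13, 2.82 and 3.45 in CB1KO. Both groups were tight, and the difference was 1.44 ± 0.23 (adjusted p = 0.0743). Zfp709, a zinc finger gene, was well above background on none of the WT arrays and on 3 of the CB1KO arrays, so no size is given (adjusted p = 0.0645). The other 8 were Plekhh1 (1.91, with 2 WT arrays not well above background), Plod2, a collagen lysyl hydroxylase (0.79), the transcription factor Sox9 (1.09), the tetraspanin Tspan6 (0.67), the secreted Angptl2 (1.13), Ier5 (0.69), the lipid droplet protein Plin3 (0.92) and the exonuclease Eri1 (0.73). Adjusted p values of the 15 ran from 0.0155 to 0.209.

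The 15 genes with all CB1KO values below all WT values had adjusted p values from 0.0745 to 0.212. Kcnab1, a potassium channel subunit, read 1.52, 0.70, 0.96 and 1.46 in WT and -0.44, -0.54, 0.28 and -0.32 in CB1KO. CB1KO replicate 3 came nearest to WT, and the difference was -1.41 ± 0.25 (adjusted p = 0.101). Rnf126, a ubiquitin ligase, read 4.42, 4.30, 4.44 and 4.45 in WT and 3.56, 3.49, 4.09 and 3.67 in CB1KO. The WT arrays were nearly alike, and the difference was -0.70 ± 0.13 (adjusted p = 0.113). Snph, an anchor of mitochondria in axons, read -0.27, -0.68, -0.30 and -0.27 in WT against -3.56, -2.30, -1.08 and -1.99 in CB1KO. Its CB1KO values were far more spread than its WT values, with a difference of -1.85 ± 0.37 (adjusted p = 0.163). Htra4, a serine protease, had a difference of -2.92 ± 0.61 (adjusted p = 0.203), from 1.16, 0.06, 0.59 and 0.90 in WT to -2.89, -1.25, -1.18 and -3.67 in CB1KO.

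Mylk2, a kinase of the myosin light chain in muscle fibres, read 7.43, 7.56, 7.29 and 7.25 in WT and 6.43, 6.44, 7.01 and 6.89 in CB1KO. The groups were apart by a small step, and the difference was -0.69 ± 0.15 (adjusted p = 0.209). Srebf1, a regulator of lipid synthesis, had a difference of -0.77 ± 0.17 (adjusted p = 0.209), with WT levels of -0.61, -0.73, -0.44 and -0.78 and CB1KO levels of -1.47, -1.60, -1.02 and -1.54. Serpind1, which encodes a thrombin inhibitor, was well above background on 3 WT arrays and on none of the CB1KO arrays, which makes it at least 1.72-fold lower (adjusted p = 0.0745; mean levels were -3.12 in WT and -5.31 in CB1KO). The bound sets each CB1KO value at the lowest signal called well above background on its array where the gene was dimmer than that. By the same measure the odorant receptor gene Olfr486 was at least 1.19-fold lower (adjusted p = 0.137) and the homeobox gene Nkx6-2 at least 1.07-fold lower (adjusted p = 0.163), while Toporsl, also on none of the CB1KO arrays, allows no fold. The others were the spindle gene Tpx2 (-1.56), the T cell receptor co-stimulator Cd28 (-1.45), Atp8b4 (-0.85), Ush1c (-1.31) and Plekhb1 (-0.78).

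**Figure D2:**
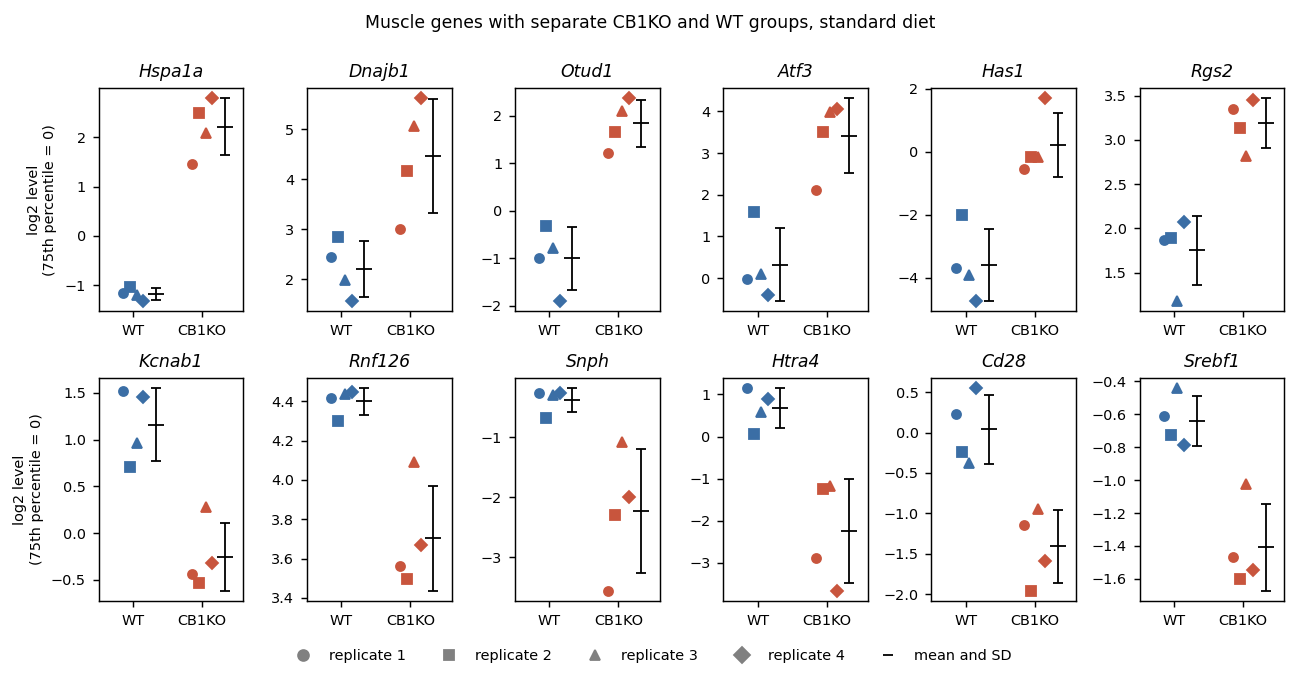
Level of 12 genes in each of the 8 standard-diet arrays (log2, the 75th percentile of the array at 0). Marker shapes are replicates 1 to 4, blue is WT, orange is CB1KO, and the black bar is the mean ± SD of 4 arrays. In every panel the groups do not overlap; the vertical scales differ between panels and do not start at 0.

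Of 42 measured heat shock and chaperone genes, 3 were higher and 7 lower at an unadjusted p under 0.05, and their median difference was -0.01, against -0.12 over all genes. The 3 were Hspa1a, Dnajb1 and Dnajb4, a further Hsp40 gene at 0.56 ± 0.16. Among the 11 measured Hsp70 genes the median was close to 0, and the constitutive Hspa8 read 8.26, 8.26, 7.99 and 8.02 in WT and 7.55, 7.91, 7.50 and 8.16 in CB1KO. Its difference was -0.35 ± 0.16, opposite in sign to Hspa1a. Hsp90 genes and their co-chaperones had a median of -0.21, with 1 of 10 above 0 (32.1% of all genes tested were above 0). Hsph1, which encodes a large Hsp70 partner, read 4.51, 4.41, 4.69 and 4.52 in WT and 3.93, 3.92, 4.26 and 4.10 in CB1KO, groups that do not overlap (-0.48 ± 0.17). Hsf1, the factor that drives heat shock genes, was also lower in every CB1KO array than in any WT array (-0.39 ± 0.13). Hsp90aa1 (0.35 ± 0.27) and Hspb1 (0.28 ± 0.17) had groups that overlapped, with CB1KO replicates 3 and 4 highest. The count of 7 lower genes was 4 without WT replicate 1, without WT replicate 2 or without CB1KO replicate 2. The split turned with scaling: 5 were higher and 3 lower after quantile normalization (median 0.10), 3 and 3 with the deposited scores (0.04), and 2 and 0 with arrays centred on the median (0.07).

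Heat shock factors bind inverted repeats of a short unit, the heat shock element, upstream of chaperone genes. A pair of units (GAANNTTC or TTCNNGAA, each its own reverse complement) was searched for in the 250 bases before RefSeq start sites, and the cyclic AMP response element (CRE, TGACGTCA, also its own reverse complement) likewise. The pair of units was found in 12.8% of the 32851 promoters, and the CRE in 1.55%. Shown are Hspa1a, the gene that passed, Hsph1, which has the same element but a lower level in CB1KO, and Has1 and Btg2, higher in every CB1KO array and holding a CRE. Capitals mark the element, the build is GRCm38.p6, all 4 lie on the minus strand, and sequences are from RefSeq.
Hspa1a, chr17:34972157-34972406: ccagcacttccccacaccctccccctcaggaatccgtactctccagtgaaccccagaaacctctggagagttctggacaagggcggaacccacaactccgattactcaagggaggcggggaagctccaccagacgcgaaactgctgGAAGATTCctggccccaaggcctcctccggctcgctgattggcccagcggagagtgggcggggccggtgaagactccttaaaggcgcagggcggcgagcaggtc
Hsph1, chr5:149636337-149636586: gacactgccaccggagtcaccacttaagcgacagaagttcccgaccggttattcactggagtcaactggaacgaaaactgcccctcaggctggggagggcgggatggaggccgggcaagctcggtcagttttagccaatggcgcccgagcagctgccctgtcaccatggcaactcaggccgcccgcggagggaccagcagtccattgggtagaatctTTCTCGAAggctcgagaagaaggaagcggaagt
Has1, chr17:17855189-17855438: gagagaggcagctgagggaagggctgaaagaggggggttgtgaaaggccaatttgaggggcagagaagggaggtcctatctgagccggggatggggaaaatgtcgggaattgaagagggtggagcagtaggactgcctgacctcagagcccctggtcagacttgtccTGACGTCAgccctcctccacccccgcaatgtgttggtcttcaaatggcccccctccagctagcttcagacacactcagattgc
Btg2, chr1:134079156-134079405: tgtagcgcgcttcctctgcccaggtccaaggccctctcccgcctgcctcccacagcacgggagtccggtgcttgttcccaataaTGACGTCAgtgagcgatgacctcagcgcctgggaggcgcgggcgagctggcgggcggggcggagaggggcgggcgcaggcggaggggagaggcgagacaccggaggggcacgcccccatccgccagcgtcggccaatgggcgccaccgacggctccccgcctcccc
Among the 15 higher genes above, 12 had a promoter in the table, and Hspa1a was the only one with the pair of heat shock units. Has1 was the only one of them with a CRE. Of the 33 heat shock and chaperone genes with a promoter, 13 held the pair in any of their promoters. Counted by gene in the same way, 3932 of all 27025 genes with a promoter did. A CRE was found in 3 of 29 immediate early genes with a promoter, Btg2 among them. It was found in 0 of the 33 heat shock and chaperone genes and in 478 of the 27025 genes. Also searched were a run of 3 heat shock units and the CArG box, a further short element. The 3 units were found in 3 of the 33, Hspa1a not among them, and in 139 of the 27025. The CArG box was found in 3 of the 29 and in 439 of the 27025. A match of letters is a description of the sequence, not a site in use.

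Immediate early genes encode transcription factors and regulators that cells switch on within minutes of a stimulus. Of 39 measured, 24 were higher and 2 lower at an unadjusted p under 0.05, 34 had a difference above 0, and in 13 the CB1KO arrays lay entirely above the WT arrays. Their median difference was 0.78, against -0.12 over all genes, and it ran from 0.77 to 1.07 with any 1 array left out. Fos, the partner of Jun in the AP-1 factor, read 3.52, 4.59, 0.20 and 0.56 in WT and 4.67, 4.73, 5.15 and 5.54 in CB1KO. The CB1KO arrays were close together, while WT replicates 1 and 2 came near them and WT replicates 3 and 4 were far lower (difference 2.80 ± 1.15, adjusted p = 0.494). Fosb had the same layout, with 2.03, 3.38, -1.86 and -0.97 in WT and 3.13, 3.27, 3.60 and 3.78 in CB1KO, and WT replicate 2 inside the CB1KO range (2.79 ± 1.04). Egr1, a zinc finger factor, read 3.56, 4.35, 1.29 and 0.66 in WT and 4.70, 3.85, 5.01 and 5.79 in CB1KO, again with WT replicate 2 inside the CB1KO range (2.38 ± 0.91).

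Some other immediate early genes had groups that did not overlap, although for Btg2 WT replicates 1 and 2 were again the highest of WT. Btg2, an inhibitor of cell division, read 2.30, 2.84, 0.95 and 0.42 in WT and 3.97, 4.13, 4.54 and 4.92 in CB1KO, with no overlap (2.76 ± 0.87, adjusted p = 0.361). Junb was also apart, at -2.12, -1.90, -3.23 and -2.21 in WT and -0.85, 0.18, -1.04 and -0.47 in CB1KO (1.82 ± 0.65). Its relatives Jund (0.78 ± 0.26) and Jun (0.65 ± 0.23) had smaller differences, and the Jun groups overlapped. Csrnp1 (2.21 ± 0.64), Ccn2 (1.48 ± 0.44), Fosl2 (1.48 ± 0.42) and Ier5 (0.69 ± 0.14) were apart in all 8 arrays, although a second Fosl2 probe gave 0.35. Egr2 (1.81 ± 0.45) and the nuclear receptor Nr4a1 (1.21 ± 0.37) overlapped between groups through WT replicate 2. Egr3 differed by only 0.26 ± 0.63, and its sign turned without WT replicate 2 (-0.27) or without CB1KO replicate 2 (-0.029). The mean level of the 39 genes was 1.67, 2.05, 0.97 and 0.94 in WT and 2.26, 2.39, 2.72 and 3.03 in CB1KO, so no CB1KO array fell within the WT range.

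Genes that limit such signals were partly higher. Of 15 measured MAP kinase phosphatases and Sprouty inhibitors, 2 were higher and 0 lower at an unadjusted p under 0.05, Dusp14 (0.58 ± 0.15) and Spry4 (1.07 ± 0.42, with 2 WT arrays not well above background). That higher count was 4 without WT replicate 1, WT replicate 2 or CB1KO replicate 2, and 1 without replicate 3 or 4 of either genotype. Dusp1 was apart between groups at 1.39 ± 0.66, with the WT split seen for Fos: 4.01, 4.33, 2.10 and 1.97 in WT and 4.37, 4.42, 4.54 and 4.66 in CB1KO. Of 17 regulators of G protein signalling, 2 were higher, Rgs2 and Rgs16 (0.63 ± 0.24, with 2 WT arrays not well above background), and 0 were lower. The count of 2 was 4 without WT replicate 2 or CB1KO replicate 2, and 1 without WT replicate 1 or CB1KO replicate 4. Trib1, a pseudokinase, read 1.05, 0.95, 1.07 and 1.08 in WT and 1.71, 2.12, 2.53 and 2.60 in CB1KO, far outside the narrow WT range (1.21 ± 0.27, adjusted p = 0.215). Irs2, the docking protein of the insulin receptor, was likewise apart (0.82 ± 0.24, adjusted p = 0.323).

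**Figure D3:**
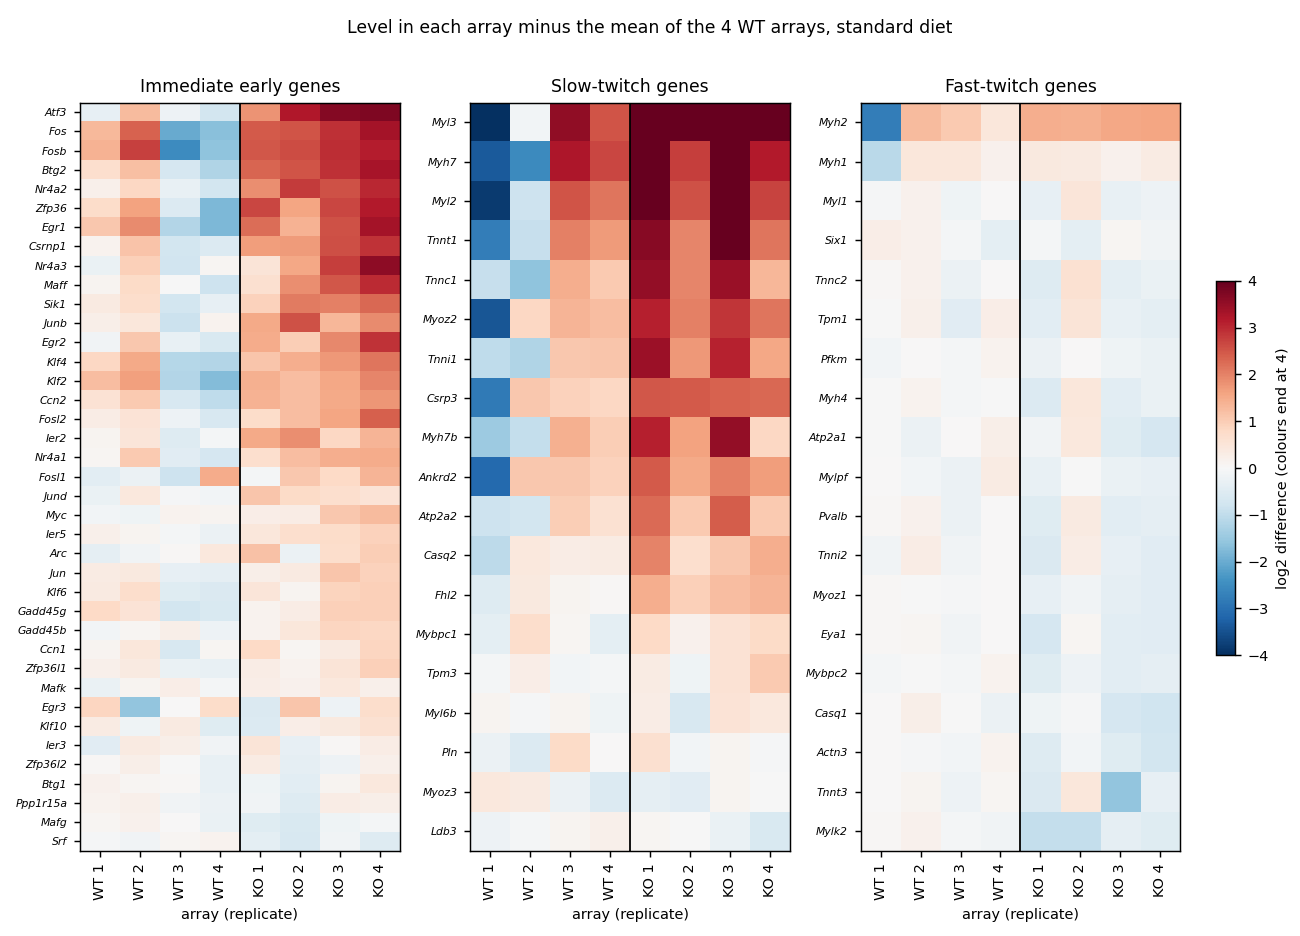
Level of each immediate early, slow-twitch and fast-twitch gene in each array minus the mean of its 4 WT arrays (log2; red above, blue below, colours end at 4), genes sorted by difference. WT replicates 3 and 4 are lowest for genes such as Fos, Fosb and Egr1, WT replicates 1 and 2 are lowest for slow-twitch genes such as Myh7, and most fast-twitch genes, Mylk2 among them, lie below the WT mean.

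Slow-twitch fibres are oxidative and use their own forms of the contractile proteins. Of 19 measured slow-twitch genes, 5 were higher and 0 lower at an unadjusted p under 0.05, 17 had a difference above 0, and for 9 the groups did not overlap. The median difference was 1.92 (1.40 to 2.28 with any 1 array left out). Myh7, the slow myosin heavy chain, read -1.91, -1.10, 4.70 and 4.15 in WT and 6.04, 4.23, 7.07 and 4.64 in CB1KO. WT replicates 1 and 2 were low, and WT replicates 3 and 4 came near the lower CB1KO arrays. The difference of 4.04 had a standard error of 2.13 in the fit of all 16 arrays (adjusted p = 0.622). Myl3, a slow myosin light chain, read -2.61, 3.21, 6.89 and 5.86 in WT and 8.0, 7.61, 8.36 and 7.32 in CB1KO, with no overlap but a wide WT spread (4.48 ± 2.29, adjusted p = 0.609). Tnni1, the slow troponin I, read -0.67, -0.86, 1.40 and 1.46 in WT and 3.74, 2.07, 3.42 and 1.86 in CB1KO, also without overlap (2.44 ± 1.00, adjusted p = 0.491). The other troponin subunits Tnnt1 (2.96 ± 1.42) and Tnnc1 (2.56 ± 1.19) overlapped between groups. Fhl2, a LIM domain protein, had the smallest p of the list, with -1.61, -0.72, -1.0 and -1.06 in WT and 0.34, -0.13, 0.14 and 0.27 in CB1KO (1.25 ± 0.34, adjusted p = 0.295). The slow calcium pump Atp2a2 (1.69 ± 0.71) and the calcium store protein Casq2 (1.29 ± 0.59) were apart as well.

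The count of 5 was 1 without WT replicate 1, without CB1KO replicate 1 or without CB1KO replicate 3. It was 8 after quantile normalization, 10 with normexp added, 9 with arrays centred on the median, and 12 when only the 8 SD arrays were fitted. The mean level of the 19 genes was 0.30, 1.72, 3.05 and 2.75 in WT and 4.21, 3.23, 4.23 and 3.39 in CB1KO. In whole muscle, fewer cells or fibres of a type and less RNA per cell cannot be told apart. Of 19 fast-twitch genes, 0 were higher and 6 lower at an unadjusted p under 0.05, and the median was -0.22. With arrays centred on the median 0 were lower, and after quantile normalization 2 were. Mylk2, Actn3 (-0.46 ± 0.15), Myoz1 (-0.32 ± 0.10) and Mybpc2 (-0.37 ± 0.12), all of the fast contractile apparatus, were below WT in every CB1KO array. The fast myosin heavy chains did not separate in this way: Myh4 differed by -0.19 ± 0.23 and Myh1 by 0.32 ± 0.60. Myh2, of intermediate fibres, read 4.16, 8.19, 7.95 and 7.35 in WT and 8.36, 8.32, 8.46 and 8.50 in CB1KO, with WT replicate 1 alone far below (1.50 ± 1.49).

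Sln encodes sarcolipin, a small inhibitor of the muscle calcium pump. Its levels were 1.44, 1.26, 0.83 and 0.87 in WT and 3.85, 3.14, 3.33 and 4.79 in CB1KO, with no overlap and the WT arrays the closer together (2.68 ± 0.71, adjusted p = 0.27). The HFHS difference of Sln was larger, at 5.86. Of 26 measured genes of sarcoplasmic calcium handling, 3 were higher and 3 lower at an unadjusted p under 0.05. The lower ones included Srl (-0.33 ± 0.11) and the fast store protein Casq1 (-0.42 ± 0.19). Without CB1KO replicate 2 the lower count was 8 and without CB1KO replicate 3 it was 5, while the higher count was 1 without WT replicate 1, CB1KO replicate 1 or CB1KO replicate 3.

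The gene lost in the knockout, Cnr1, read -2.03, -2.28, -2.98 and -3.64 in WT and -2.56, -3.69, -3.41 and -2.23 in CB1KO. The groups overlapped throughout, and 3 arrays of each were well above background. Its difference was -0.24 ± 0.46 (adjusted p = 0.933; two-sided exact permutation p = 0.657, the smallest possible being 0.0286), and it was 0.00 without CB1KO replicate 2. The files do not say whether the probe lies in the floxed part, and fibres are not the only cells in the tissue, so this value does not check the labels. No measured gene of the endocannabinoid list (0 higher and 0 lower of 16) passed an unadjusted p of 0.05. Dagla, which makes the endocannabinoid 2-arachidonoylglycerol, came nearest at -0.48 ± 0.24, followed by Gde1 (-0.21 ± 0.12).

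Il6 read -3.30, -2.70, -3.39 and -3.87 in WT and -1.77, -2.76, -0.95 and 0.98 in CB1KO. WT replicate 4 and CB1KO replicate 2 were not well above background, and CB1KO replicate 4 was far above the rest. The difference was 2.19 ± 0.61 (adjusted p = 0.318; exact permutation p = 0.0571). Of 32 measured genes of interleukin 6 and STAT3 signalling, 6 were higher and 0 lower at an unadjusted p under 0.05, with a median of 0.24, and the higher count was 10 without CB1KO replicate 2. Receptors and kinases contributed none of the 6: Il6ra differed by -0.26 ± 0.26, Il6st by -0.09 ± 0.12 and Stat3 by 0.13 ± 0.17. Besides Il6, the 6 were targets and inhibitors of the pathway, Socs3, Socs1, Bcl3, Junb and Fgl1. Socs3, a feedback inhibitor, read 1.36, 2.42, 0.34 and 0.40 in WT and 3.02, 1.60, 3.64 and 5.22 in CB1KO, where replicate 4 was again highest and replicate 2 lowest (2.24 ± 0.69, adjusted p = 0.34). Fgl1, a secreted fibrinogen-like protein, was well above background on 3 CB1KO and on none of the WT arrays, at least 1.35-fold higher (adjusted p = 0.231; mean levels -3.56 and -6.26).

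Mstn, the gene of myostatin, read 3.51, 3.16, 2.81 and 2.86 in WT and 1.41, 2.24, 3.20 and 2.93 in CB1KO. CB1KO replicates 1 and 2 were low, and replicates 3 and 4 lay within the WT range (-0.64 ± 0.43, adjusted p = 0.73, exact permutation p = 0.257). Of 31 genes of myostatin and activin signalling, 0 were higher and 2 lower at an unadjusted p under 0.05, both receptors: Bmpr2 (-0.42 ± 0.13) and Acvr1b (-0.61 ± 0.20). The lower count was 4 without WT replicate 4 or without CB1KO replicate 3. The receptor genes had a median of -0.31, with 1 of 8 above 0, while the 9 ligands had a median of 0.02.

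Of 30 measured cytokine and chemokine genes, 8 were higher and 0 lower at an unadjusted p under 0.05, with a median of 0.30. Il15, a cytokine made by muscle, read -1.59, -0.85, -0.74 and -0.40 in WT and 0.48, 0.06, 0.10 and -0.03 in CB1KO, apart by a small step (1.04 ± 0.31, adjusted p = 0.323). The monocyte attractants Ccl7 (2.0 ± 0.59) and Ccl2 (1.47 ± 0.51) overlapped between groups, with WT replicate 4 the highest of WT for both. Nfkbia, an inhibitor of NF-kappa-B, was apart (0.66 ± 0.28), and Nfkbiz (0.68 ± 0.23) and Tnfaip6 (1.28 ± 0.41) were not. The count of 8 was 5 without CB1KO replicate 4. Beside these, 0 of 16 macrophage markers were higher or lower (2 were higher without WT replicate 4): their mean level was 0.05, 0.25, 0.07 and 1.42 in WT and 0.95, 0.29, -0.06 and 1.08 in CB1KO. Of 9 neutrophil markers, 2 were higher, S100a9 (1.36 ± 0.54) and S100a8 (1.13 ± 0.49), and the list mean was -0.46 on CB1KO replicate 2, while the remaining 7 arrays had -2.07 to -1.50. The count was 0 without WT replicate 1, CB1KO replicate 2 or CB1KO replicate 4. Of the 9 markers, 6 stood well above background on all 8 arrays. The dimmest spot called well above background was at -2.74 on CB1KO replicate 2 and at -4.61 to -3.40 on the remaining 7 arrays. Of 11 T and B lymphocyte markers, 0 were higher and 2 lower, Cd28 among them (1 lower without WT replicate 1 or 3). The part of immune cells in the cytokine values was not tested.

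Among 34 genes of hyaluronan, matrix and remodelling, 8 were higher and 0 lower at an unadjusted p under 0.05, and the median was 0.10. The hyaluronan part was spread over several steps: Has1 and Has2 (0.71 ± 0.31) make the chain, Ugdh (0.67 ± 0.24) its precursor, and Cd44 (0.56 ± 0.19) is its receptor. The protease Adamts4, well above background on 1 WT and 3 CB1KO arrays (2.35 ± 0.83), and the protease inhibitor Timp1 (1.50 ± 0.57) overlapped between groups. None of the 11 collagens was among the 8. The count was 4 without WT replicate 3 or with arrays centred on the median, and 5 without CB1KO replicate 4. In 12 fibroblast and fibro-adipogenic markers 0 were higher or lower, with means of 3.21 to 3.57 in WT and 2.94 to 3.80 in CB1KO.

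Of 27 genes of myogenesis and regeneration, 8 were higher and 0 lower at an unadjusted p under 0.05, with a median of 0.20. Myog, which drives the differentiation of muscle precursors, read -1.35, -1.13, -1.03 and 0.72 in WT and 0.36, 0.62, 0.43 and 1.29 in CB1KO, with WT replicate 4 inside the CB1KO range (1.37 ± 0.47, adjusted p = 0.402). Myod1 (0.87 ± 0.31) overlapped in the same way. Myh3, the embryonic myosin heavy chain, read -2.60, -1.41, -1.08 and 1.69 in WT and 3.77, -1.05, 1.21 and 4.58 in CB1KO, wide in both groups (2.98 ± 1.12). Tnnt2, the embryonic and cardiac troponin T, differed by 1.72 ± 0.71. Xirp1, a protein of damaged and growing fibres, was apart, with 1.39 to 2.0 in WT and 2.61 to 3.08 in CB1KO (1.15 ± 0.41). The count of 8 was 4 without WT replicate 1 or CB1KO replicate 1, and 3 without CB1KO replicate 4. At the neuromuscular junction 4 of 22 genes were higher and 0 lower, Myog among them. The acetylcholine receptor subunit Chrna1 read 1.89, 1.55, 2.15 and 2.83 in WT and 3.88, 2.69, 2.77 and 4.07 in CB1KO, overlapping only through WT replicate 4 (1.25 ± 0.44, adjusted p = 0.422). Chrna9 was apart (1.74 ± 0.62), Kcnn3 was at 0.71 ± 0.27 with a second probe at -0.29, and Chrnd was at 0.68 ± 0.34. Of 7 satellite cell markers, 2 were higher and 0 lower (0 higher without WT replicate 3, and 1 without any other array but WT replicate 1), and the list means overlapped.

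Mt1 and Mt2 encode metallothioneins, which bind zinc and copper, and both were highest in CB1KO replicates 3 and 4. Mt1 read 5.34, 5.52, 4.42 and 5.94 in WT and 6.34, 6.47, 7.39 and 8.31 in CB1KO, with no overlap (1.82 ± 0.45, adjusted p = 0.257). Mt2 had WT replicate 4 inside the CB1KO range (2.0 ± 0.56). In the list of metallothioneins and oxidative stress, 2 of 19 were higher, Mt1 and Mt2, and 1 lower, the zinc exporter Slc30a1, below WT in every CB1KO array (-0.28 ± 0.11). The lower count was 0 without WT replicate 2, WT replicate 3 or CB1KO replicate 2, and 2 without WT replicate 4, CB1KO replicate 3 or CB1KO replicate 4. Mt3, a further metallothionein, differed by 0.29 ± 0.39, with overlap. Of 33 atrophy and autophagy genes, 3 were higher and 1 lower, the lower one being Ulk1 (-0.45 ± 0.19), a kinase that starts autophagy. The lower count was 6 without WT replicate 4, 5 without CB1KO replicate 3, and 0 without WT replicate 2, WT replicate 3, CB1KO replicate 1 or CB1KO replicate 2. The ubiquitin ligases of muscle wasting, Trim63 (-0.55 ± 0.29) and Fbxo32 (-0.48 ± 0.26), did not pass an unadjusted p of 0.05. Growth arrest genes had 5 higher and 2 lower of 21, with Cdkn1a, an inhibitor of cell cycle kinases, apart at 1.01 ± 0.41, although its second probe gave -0.13. The higher count was 2 without WT replicate 3 or CB1KO replicate 4 and 3 without WT replicate 4. The lower count was 0 without CB1KO replicate 4 and 1 without WT replicates 1, 2 or 3 or CB1KO replicates 1 or 3, and it was 0 with arrays centred on the median.

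Integrated stress response genes went both ways, with 1 higher and 2 lower of 20 (1 lower without WT replicate 3 or CB1KO replicate 2). Chac1, which degrades glutathione, read 7.39, 7.42, 7.90 and 7.85 in WT and 6.62, 6.46, 7.18 and 6.34 in CB1KO, below WT in every array (-0.99 ± 0.22, adjusted p = 0.212). Ddit3, a transcription factor of the same response, was above WT in every array, at -0.36 to 0.06 in WT and 0.39 to 0.66 in CB1KO (0.63 ± 0.23). Trib3, regulated by the same pathway, was at -0.55 ± 0.21. None of 14 endoplasmic reticulum chaperones was higher or lower. Of 18 ubiquitin and deubiquitinating stress genes, 2 were higher, Otud1 among them, and 4 lower (0 lower with arrays centred on the median).

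How many metabolic genes passed an unadjusted p of 0.05 depended on the scaling. Of 42 oxidative phosphorylation genes 0 were higher and 0 lower, with a median of 0.02, against -0.26 for the same genes on HFHS. The higher count was 1 after quantile normalization and 5 with normexp added, where 40 of the 42 lay above 0 in both cases (medians 0.15 and 0.14). The tricarboxylic acid cycle list had 2 higher and 0 lower of 30. That count was 0 without WT replicates 1 or 4 or CB1KO replicates 1, 3 or 4, 1 without WT replicate 3 and 4 without WT replicate 2, and it was 5 after quantile normalization and 0 with arrays centred on the median. For the difference between the diets, 12 of 38 fatty acid genes had an unadjusted p under 0.05. The count was 2 for the 42 oxidative phosphorylation genes and 1052 for all 29011 genes. The fatty acid list had a median of 0.26, against -0.33 on HFHS. On the standard diet 1 of its genes was higher and 1 lower, although 28 had a difference above 0. The higher one was Ppara, a fatty acid-sensing receptor (1.06 ± 0.42, with other probes down to -0.09), and the higher count was 5 without CB1KO replicate 2, 3 without WT replicate 2 or 3, and 0 without WT replicate 1 or CB1KO replicates 1, 3 or 4. After quantile normalization 7 were higher. The lower one, Angptl4, an inhibitor of lipoprotein lipase, was below WT in every CB1KO array (and did not pass without WT replicate 3 or CB1KO replicate 3), at 3.29, 3.54, 4.22 and 3.51 in WT and 3.10, 2.49, 2.38 and 2.96 in CB1KO (-0.90 ± 0.35). Glucose and glycogen genes had 0 higher and 4 lower of 28, a lower count that was 0 without CB1KO replicate 1, 7 without CB1KO replicate 2, and 2 without CB1KO replicate 4 or any 1 WT array. Without CB1KO replicate 2, 3 were higher, and after quantile normalization 3 were higher and 1 lower. Insulin, Akt and mTOR signalling had 3 higher and 1 lower (Rictor, -0.36 ± 0.15) of 22, and the lower count was 3 without CB1KO replicate 3, 2 without WT replicate 4 and 0 without WT replicate 3 or CB1KO replicate 2.

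Clock genes had 2 higher, Per1 and Per3, and 1 lower, Arntl, of 19. The higher count was 0 without WT replicate 3 or 4, 1 without WT replicate 1 or CB1KO replicates 2, 3 or 4, and 0 with arrays centred on the median. Arntl, the core activator of the clock, read 2.69, 2.30, 2.26 and 1.42 in WT and 1.14, 0.81, 1.64 and 1.19 in CB1KO, overlapping through WT replicate 4 (-0.97 ± 0.33, adjusted p = 0.39). Of 10 repressors 7 had a difference above 0 and 3 one below, down to -0.38. Per1 was at 0.82 ± 0.34, Per3 at 0.38 ± 0.16 and Per2 at 0.47 ± 0.29, and Per1 and Per2 were above WT in every CB1KO array. The hour of tissue collection is not in the labels. Of the remaining lists, interferon response had 1 higher (Bst2, -1.36 to -0.72 in WT and 0.54 to 1.16 in CB1KO, 1.67 ± 0.42) and 1 lower (Ifit3, -0.60 ± 0.27) of 23. Without CB1KO replicates 1 or 2 there were 2 and 3 higher interferon genes, and 0 were lower without replicate 1 of WT, replicate 3 of WT, or CB1KO replicates 1 or 2. Potassium channels had 2 higher and 2 lower of 23. Their higher count was 0 without WT replicate 1, 4 without CB1KO replicate 2 and 1 without any other array but WT replicate 2, and 0 with arrays centred on the median, while 1 was lower without WT replicates 1 or 2 or CB1KO replicate 1. Muscle-secreted factors had 2 and 2 of 20, with 4 higher without CB1KO replicate 2 and 1 lower without WT replicates 3 or 4 or CB1KO replicate 3.

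**Figure D4:**
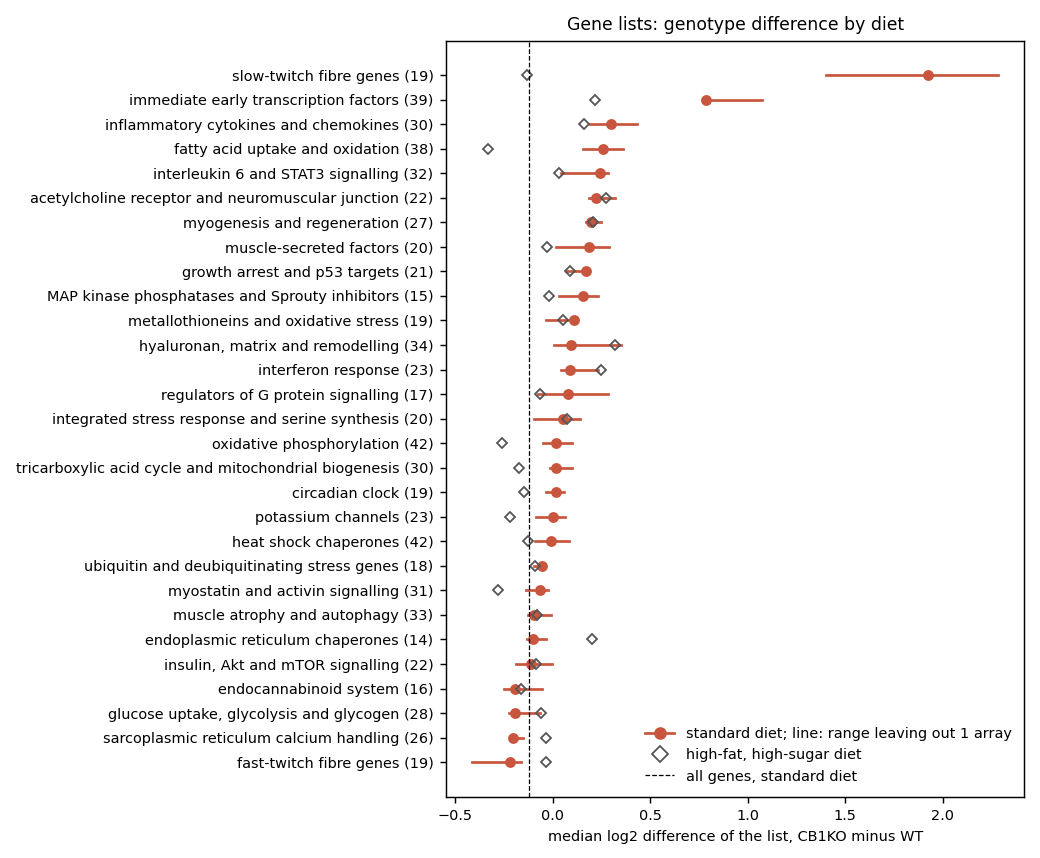
Median log2 difference, CB1KO minus WT, of 29 gene lists, with the number of measured genes in brackets. Orange points are the standard diet, their lines the range with 1 of the 8 arrays left out, open diamonds the high-fat, high-sugar diet, and the dashed line the median of all genes on the standard diet (-0.12). The slow-twitch (1.92) and immediate early (0.78) lists stand to the right of the others on the standard diet.

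Markers of other tissues varied from array to array. The mean level of 10 adipocyte markers was 2.87, 2.87, 4.21 and -0.13 in WT and 2.76, 2.08, 0.10 and 1.89 in CB1KO. Adipoq, the gene of the fat cell hormone adiponectin, read 3.91, 3.57, 4.55 and -0.86 in WT and 3.13, 2.59, -1.19 and 1.91 in CB1KO, so 1 array of each genotype was low (-1.19 ± 1.13). Of the 10 markers, 9 had a difference below 0, and the median was -1.05 (at its highest -0.25 with any 1 array left out). At an unadjusted p under 0.05, 1 was higher and 0 lower, and 6 were lower without WT replicate 4. The higher one did not pass without WT replicates 1 or 4 or CB1KO replicates 3 or 4. Schwann cell and nerve markers had 0 higher or lower of 10 and a median of -0.32, with 2 lower without WT replicate 4. Endothelial markers had 1 higher (Cldn5, a junction protein, 0.66 ± 0.28) and 0 lower of 12, with 0 higher without WT replicates 1 or 4 or CB1KO replicate 4 and 2 without replicate 2 of either genotype. Smooth muscle and pericyte markers had 0 higher and 1 lower of 12 (0 lower without WT replicates 1 or 4 or CB1KO replicate 3, and 2 higher without CB1KO replicate 2), while of 8 tenocyte and 8 erythroid markers 0 were higher or lower. The part of these cells in the fibre-type and metabolic values was not tested.

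**Figure D5:**
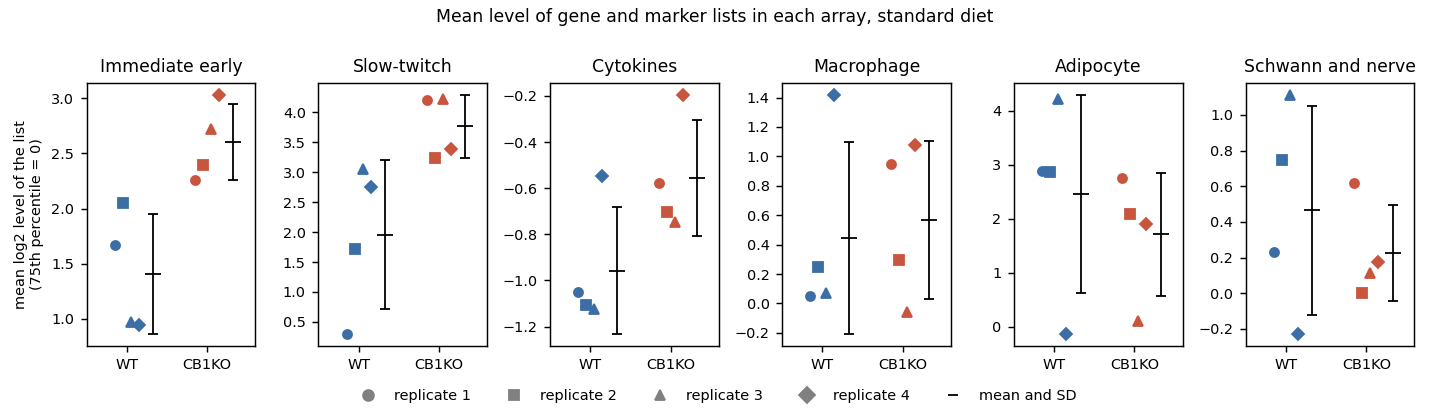
Mean level of 6 gene and marker lists in each standard-diet array (log2, the 75th percentile of the array at 0). Shapes are replicates 1 to 4, and the black bar is the mean ± SD of 4 arrays. The groups do not overlap for the immediate early and slow-twitch lists, while the macrophage and adipocyte lists spread within both genotypes.

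The standard-diet values were set against the same genotype comparison on HFHS, whose 8 arrays lay on a second slide, and diet therefore cannot be told apart from slide. On that slide WT again lay in the first row and CB1KO in the second. Genotype and slide row thus cannot be told apart on either diet, nor in a sign that both diets share. On HFHS, 51 genes were higher (0.176%) and 21 lower (0.0724%) at an adjusted p under 0.05. Of the 15 higher genes named above, 13 had an HFHS difference above 0, against 31.4% of all genes. Of the 15 lower ones 14 had one below 0, against 68.6% of all genes. For the difference between the diets (interaction), 0 genes were higher and 0 lower (0% each) at an adjusted p under 0.05, with 444 higher (1.53%) and 608 lower (2.1%) at an unadjusted p under 0.05 and a lowest adjusted p of 0.358. Hspa1a differed by -0.24 on HFHS, 3.64 below its standard-diet difference. Of the 15 higher genes, 11 had an unadjusted interaction p under 0.05, including Hspa1a, Otud1 (0.13 on HFHS), Dnajb1 (0.08) and Atf3 (0.37). These genes were picked by their standard-diet p, which enters the interaction too, so this count is a description. Of the 15 lower genes 2 did, Nkx6-2 (0.53 on HFHS) and Serpind1 (-0.89). Rgs2 (1.64 on HFHS), Kcnab1 (-1.29), Rnf126 (-0.74), Snph (-2.25) and Htra4 (-2.95) had HFHS differences of the same sign. The immediate early genes had a median of 0.22 on HFHS, with 26 of 39 above 0, and the slow-twitch genes a median of -0.13, with 9 of 19 above 0. The median of all genes on HFHS was -0.14. An unadjusted interaction p under 0.05 was seen for 7 of the 39 immediate early genes and 1 of the 19 slow-twitch genes. Over all 29011 genes the count was 1052.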

How the data were processed

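The arrays are 1-colour Agilent arrays of 62976 spots. Feature Extraction 11.5.1.1 produced the deposited scanner output, per the file headers: a processed intensity for every spot, background-corrected array by array. A deposited table of the series gives each spot a score, which a check showed to be the log2 processed intensity of its array, centred and divided by its SD.

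Here log2 processed intensity minus the array's 75th percentile was used, with outlier spots set to missing. The brightest probe stood for each gene, with probes kept if 4 or more of the 16 arrays had them well above background: 29011 genes, 17378 with a RefSeq symbol. limma 3.58.1 (R 4.3.3) fitted 1 mean per group to all 16 arrays, with Benjamini-Hochberg adjustment over all genes, a threshold of 0.05 and two-sided tests. In simulated data with 200 changed genes the script was tested, and it called 53 of the 100 changed by 1 (log2) and 74 of the 100 changed by 2. The number of arrays limits the precision, and what separates the replicates beyond the word biological is not stated.

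Of 901 list entries, 889 were on the array. Named are Cnr1, Il6 and Mstn, genes past the threshold, 15 higher and 15 lower genes of smallest p with a symbol and groups that do not overlap, the up to 6 members of smallest p in each list, and members of their families or pairs. Btg2, Nr4a1, Hsp90aa1, Hspb1, Myl3, Stat3, Trim63 and Fbxo32 fall outside this rule and were chosen after their values were seen. Only as members of families or pairs are Fos, Fosb, Egr1, Egr3, Jun, Jund, Hspa8, Myh7, Myh4, Myh1, Il6ra, Il6st, Has2 and Mt3 named. One gene that the rule selects is not reported here. The arrays compared, the lists and the rules were chosen with earlier results of these data known. Whether replicate numbers pair the samples is not stated. Same-numbered CB1KO and WT arrays had correlations of deviations of -0.35, -0.75, 0.05 and -0.36. The main axis of variation among the standard-diet arrays (principal component analysis) held 58.7% of the variance. Array positions on that axis correlated at 0.986 with the SD of log2 signal. The deviations may thus mostly follow that spread, so these correlations cannot show whether same-numbered samples were paired. Same-numbered arrays also shared a slide column.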

Additional observations from a re-analysis of the deposited data

Results flagged for a closer look

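In 346 groups of 4 arrays (each named gene, list mean and array measure in WT and in CB1KO), 22 had 1 array standing far from the other three by Dixon's test at the 95% level. Chance flags about 1 in 20 such groups. The values are given without an explanation, and 8 of the 22 concern CB1KO replicate 2, the array whose log2 signal had an SD of 2.89 against 3.56 to 3.62 on the other CB1KO arrays.

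On CB1KO replicate 2, Plin3 was at 3.71 against 4.30 to 4.36 on the other CB1KO arrays, Srl at 6.10 against 6.31 to 6.35, Slc30a1 at -0.011 against 0.30 to 0.36, and Ppara at 1.00 against 1.95 to 2.07. The mean of the endoplasmic reticulum chaperones was 1.73 there against 1.91 to 1.95, that of the fast-twitch genes 8.29 against 7.80 to 7.83, and that of the neutrophil markers -0.46 against -1.89 to -1.71.

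On CB1KO replicate 4, Has1 was at 1.71 against -0.54 to -0.16, and Ugdh at 2.67 against 1.56 to 1.72. On CB1KO replicate 1, S100a8 was at -2.10 (others -0.83 to -0.68) and S100a9 at 0.090 (others 1.16 to 1.34).

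In WT, 6 of the 10 concerned replicate 4. There Tpx2 was at -0.074 against 0.55 to 0.57 on the other WT arrays, Dnajb4 at 0.39 against 0.58 to 0.59, Srl at 6.68 against 6.57 to 6.58, and Myog at 0.72 against -1.35 to -1.03. The mean of the cytokine list was -0.55 on the same array against -1.12 to -1.05, and that of the macrophage markers 1.42 against 0.05 to 0.25. WT replicate 2 had Snph at -0.68 (others -0.30 to -0.27) and Irs2 at 3.74 (others 3.50 to 3.54). WT replicate 1 had Casq2 at -1.46 (others -0.12 to 0.03), and on WT replicate 3 the satellite cell markers had a mean of -0.49 (others -0.34 to -0.31).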

How the results depend on the processing

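The count of genes past the adjusted threshold on the standard diet depended on most choices. In place of 1 higher and 0 lower genes, there were 7 and 16 with quantile normalization, 8 and 13 with normexp background correction and quantile normalization, 6 and 19 with the deposited scores times the mean SD, and 1 and 4 with arrays centred on the median. Probes well above background on all 16 arrays gave 3 and 4, the mean of a gene's probes 2 and 2, and trend and robust variances 3 and 3. Array weights gave 24 and 73, a covariate for the spread of each array's signal 22 and 126, and leaving out CB1KO_SD replicate 2 and CB1KO_HFHS replicate 1 together 21 and 205. With only the 8 SD arrays there were 0 and 0. With 1 array left out the higher count ran from 0 to 3 and the lower count from 0 to 10, the latter without CB1KO replicate 2. The cause of these shifts was not tested. For the difference between the diets, 0 and 0 became 1 and 0 with normexp, 4 and 6 with array weights, and 9 and 1 without the same pair of arrays. On HFHS, 51 higher and 21 lower genes became 89 higher with normexp, 927 and 1402 with array weights, 141 and 206 with the covariate, and 110 and 80 without the same pair. There the lower count was 9 with quantile normalization, 10 with the deposited scores, 6 with centring on the median and 38 with trend and robust variances; the HFHS alternatives were chosen after seeing the data.

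With the replicate block the standard-diet counts stayed at 1 and 0 and Hspa1a had an adjusted p of 0.0282, while on HFHS 29 were higher and 7 lower. In the 8 SD arrays with the replicate block 0 were higher and 0 lower, so Hspa1a missed the threshold there. Slide as a random block was not run, since each diet lay on its own slide and the block could not be fitted apart from it. The threshold was missed by Hspa1a in 5 of 24 alternatives, and Rgs2, Toporsl and Olfr486 passed it in 8, 7 and 6. Of 3096 values of named genes under alternatives, 7 changed sign: Cnr1 was 0.0019 without CB1KO replicate 2, with or without the other array of that pair, against a range down to -0.54. Egr3 ran from -0.27 to 0.54 with 1 array left out and was -0.029 without CB1KO replicate 2 or without the pair. Myh1 ran from -0.047 (without WT replicate 1) to 0.47, and Stat3 from -0.0082 (without CB1KO replicate 4) to 0.28. Il6 had a difference of 2.81 and passed the threshold with array weights. List medians moved by more than the spread between arrays in 24 of 984 cases.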
